A study of Mus musculus with 12 samples.

Results

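The genes described here are 10 mouse genes of intestinal lymphoid follicles and of M cells, the antigen-sampling cells of the epithelium that covers those follicles: Cxcl13, Ccl21a, Madcam1, Ccl20, Ccl9, Sox8, Tnfrsf11b, Gp2, Tnfaip2 and Bst1. They were found through the RefSeq accession of each probe, which gave 12 of the 56605 probes other than controls, for 10 of the 22911 gene symbols on the array. Sox8 and Tnfaip2 had 2 probes each. The brighter probe stood for the gene, and 9 of the 10 genes were bright enough to be tested, the exception being Sox8.

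Gene expression was measured by Agilent 1-colour microarray in the jejunum of 12 male mice, 3 mice in each of 4 groups, with 1 array per mouse. The groups were knockout mice given IIAEK, knockout mice given vehicle, wild-type mice given IIAEK and wild-type mice given vehicle. The knockout lacks Akp3 on both alleles, a gene for a form of intestinal alkaline phosphatase (IAP). IIAEK is a pentapeptide, named by the letters of its residues, that the labels describe as cholesterol-lowering. It was given by mouth at 600 mg per kg body weight once a day for 14 days to mice of 7 weeks, and the vehicle mice received a 5 g/L solution of the sodium salt of carboxymethylcellulose on the same schedule. All 12 mice were fasted for 8 h before the jejunum was taken. The source field of the IIAEK samples gives weeks where the titles and the protocol give days.

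Lymphoid follicles of the gut, such as Peyer's patches, form where stromal cells that receive lymphotoxin signals through the non-canonical NF-kB pathway secrete chemokines that draw in B cells and T cells. Lymphocytes enter from the blood through high endothelial venules that carry the adhesion molecule MAdCAM-1. The epithelium over the follicle secretes CCL20, and RANK ligand from the underlying stroma turns some of its cells into M cells, which take up particles from the lumen. Peyer's patches lie at intervals along the small intestine.

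The promoters of 3 of the genes are given first because Madcam1 and Cxcl13 were correlated over the 12 arrays and the arrays of Ccl20 separated in 1 comparison. Ccl21a was correlated with both Madcam1 and Cxcl13, but its promoter held none of the motifs searched and is not printed. The sequences are the 250 bases before the start of each gene, credited to RefSeq on build GRCm38.p6, and are read on the strand of the gene. A promoter was found for 8 of the 10 genes and not for Bst1 or Tnfrsf11b. In the Madcam1 and Ccl20 promoters, capitals mark matches to the general NF-kB consensus site, all read on the opposite strand. In the Cxcl13 promoter they mark the letters GGGAGATTT, the core of a known site of the non-canonical NF-kB dimer of RelB and p52 in mouse Cxcl13, a motif that was added after this promoter had been seen.
Madcam1, chr10:79664309-79664558, plus strand: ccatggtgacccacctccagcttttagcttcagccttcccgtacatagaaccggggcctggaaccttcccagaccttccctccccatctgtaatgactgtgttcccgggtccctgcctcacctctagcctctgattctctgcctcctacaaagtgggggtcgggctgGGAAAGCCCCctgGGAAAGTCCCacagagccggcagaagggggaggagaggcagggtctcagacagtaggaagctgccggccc
Cxcl13, chr5:95956689-95956938, plus strand: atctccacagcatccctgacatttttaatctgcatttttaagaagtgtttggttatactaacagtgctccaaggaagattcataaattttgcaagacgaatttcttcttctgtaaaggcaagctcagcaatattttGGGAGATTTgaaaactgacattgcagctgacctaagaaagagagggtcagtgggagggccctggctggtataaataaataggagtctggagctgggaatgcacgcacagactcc
Ccl20, chr1:83116516-83116765, plus strand: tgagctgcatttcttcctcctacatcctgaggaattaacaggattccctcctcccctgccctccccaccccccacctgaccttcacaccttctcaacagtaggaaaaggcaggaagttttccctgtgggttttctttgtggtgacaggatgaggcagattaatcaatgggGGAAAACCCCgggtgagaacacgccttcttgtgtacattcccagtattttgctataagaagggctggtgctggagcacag

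The NF-kB consensus was searched on both strands. Madcam1 held 2 matches that do not overlap, from 83 to 74 and from 70 to 61 bases before the start, and Ccl20 held 1, from 80 to 71 bases before it. The consensus was also met in the promoters of Ccl9, from 35 to 26 bases before the start, and of Tnfaip2, from 24 to 15 bases before it. Of all 32851 promoters of this length in the table, 7.25% held the consensus. The letters GGGAGATTT were met at 114 to 106 bases before the start of Cxcl13 and in 0.283% of all promoters. Neither the consensus nor these letters were met in the promoters of Ccl21a, Gp2 and Sox8. The ETS motif GAGGAAGT, of the kind that the M cell factor Spi-B binds, was in 2.44% of all promoters and in none of the 8 searched here. A match is a string of letters and was not tested for binding.

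Each level below is the log2 intensity of the probe after subtraction of the log2 75th percentile of its array. Probes brighter than that percentile thus have levels above 0, and a difference of 1 is a 2-fold change. Levels of different genes come from different probes and are not compared. The 75th percentile lay between 575 and 815 intensity units, 59.99% to 67.1% of spots were well above background, and no spot was saturated. Arrays of the same group correlated at 0.9782 to 0.9922 over all genes and arrays of different groups at 0.9652 to 0.9941. The arrays lay on 2 slides. Slide 1 held replicates 1 and 2 of both knockout groups and replicate 1 of both wild-type groups. Akp3 was not well above background on any of the 6 knockout arrays. Its level was -4.39, -1.61 and -1.74 in wild-type mice given IIAEK, all above background, and -3.81, -4.43 and -6.42 in wild-type mice given vehicle, where replicate 3 was below background. Against the detection limit, Akp3 was at least 7.71-fold lower in knockout than in wild-type mice when both were given IIAEK. On vehicle the groups overlapped, as the wild-type array below background lay inside the knockout range of -7.32 to -5.96. With that array included, the wild-type mean on vehicle was 1.28-fold above the detection limit of the knockout arrays. A second, dimmer Akp3 probe was above background on 2 of 3 wild-type arrays on IIAEK and on no other array. Markers of the epithelium were above background in the labelled tissue (9 of 9 tested), among them Fabp2, the fatty acid binding protein of enterocytes, at mean levels of 8.64 to 8.999 over the groups, and Alpi, the other intestinal alkaline phosphatase, at 4.48 to 5.63.

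Cxcl13 encodes the chemokine that calls B cells into follicles through the receptor CXCR5. Its levels were -1.81, -0.87 and 1.40 in knockout mice given IIAEK and -0.09, 0.94 and 0.97 in knockout mice given vehicle. In wild-type mice they were -1.46, 1.03 and 0.10 on IIAEK, against -1.08, -1.10 and 0.81 on vehicle. The highest and the lowest of the 12 arrays were both of knockout mice given IIAEK, and all 4 groups overlapped. The group means were -0.43 ± 1.65, 0.61 ± 0.61, -0.11 ± 1.26 and -0.46 ± 1.10 in that order (SD, n = 3), and no neighbours among them differed beyond this spread. The difference for IIAEK against vehicle was -1.03 in knockout mice (SE 0.84, 95% interval -2.87 to 0.80; adjusted p = 0.910 in limma) and 0.35 in wild-type mice (SE 0.84, interval -1.49 to 2.18; adjusted p = 0.845 in limma). The value in knockout mice was -1.95 without replicate 3 of the mice given IIAEK and -0.34 without their replicate 1. In bulk tissue, fewer cells of a type and less RNA per cell cannot be told apart.

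Ccl21a encodes a chemokine of the T cell zone and of high endothelial venules that binds CCR7. It read 2.44, 2.23 and 2.86 in knockout mice given IIAEK and 2.70, 3.07 and 2.60 in knockout mice given vehicle, against 2.34, 3.17 and 2.55 in wild-type mice given IIAEK and 2.37, 2.51 and 3.20 in wild-type mice given vehicle. The whole range over the 12 arrays was 2.23 to 3.20, under 1 log2 unit. All groups overlapped. The difference for IIAEK was -0.29 in knockout mice (SE 0.27, 95% interval -0.89 to 0.32) and -0.0074 in wild-type mice (SE 0.27, interval -0.61 to 0.59), and neither passed the threshold in limma. Mice carry near-identical copies of this gene, and cross-hybridisation between their probes was not tested. The probes of the copies Gm13304 and Gm1987 were also above background on all 12 arrays, at 4.39 to 5.15 and 3.47 to 4.31.

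Madcam1 encodes the adhesion molecule of mucosal venules that binds the integrin of alpha 4 and beta 7 chains. Its probe was dim. It was well above background in 1 of 3 knockout mice given IIAEK, at -4.72, with the other arrays at -5.97 and -6.05. It was above background in all 3 knockout mice given vehicle, at -4.92, -4.82 and -4.75. Among wild-type mice, those given IIAEK had -5.80, -4.24 and -4.14, and those given vehicle had -6.45, -4.85 and -4.37, with replicate 1 below background in both groups. All 4 arrays below background lay on slide 1, and the gene entered the test through the vehicle group of the knockout alone. The mean level was -5.58 ± 0.75 in knockout mice given IIAEK and -4.83 ± 0.09 in those given vehicle, against -4.73 ± 0.93 in wild-type mice given IIAEK and -5.22 ± 1.09 in those given vehicle (SD, n = 3, arrays below background included). The difference for IIAEK was -0.75 in knockout mice (SE 0.56; adjusted p = 0.910 in limma) and 0.50 in wild-type mice (SE 0.56; adjusted p = 0.663 in limma).

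**Figure D1:**
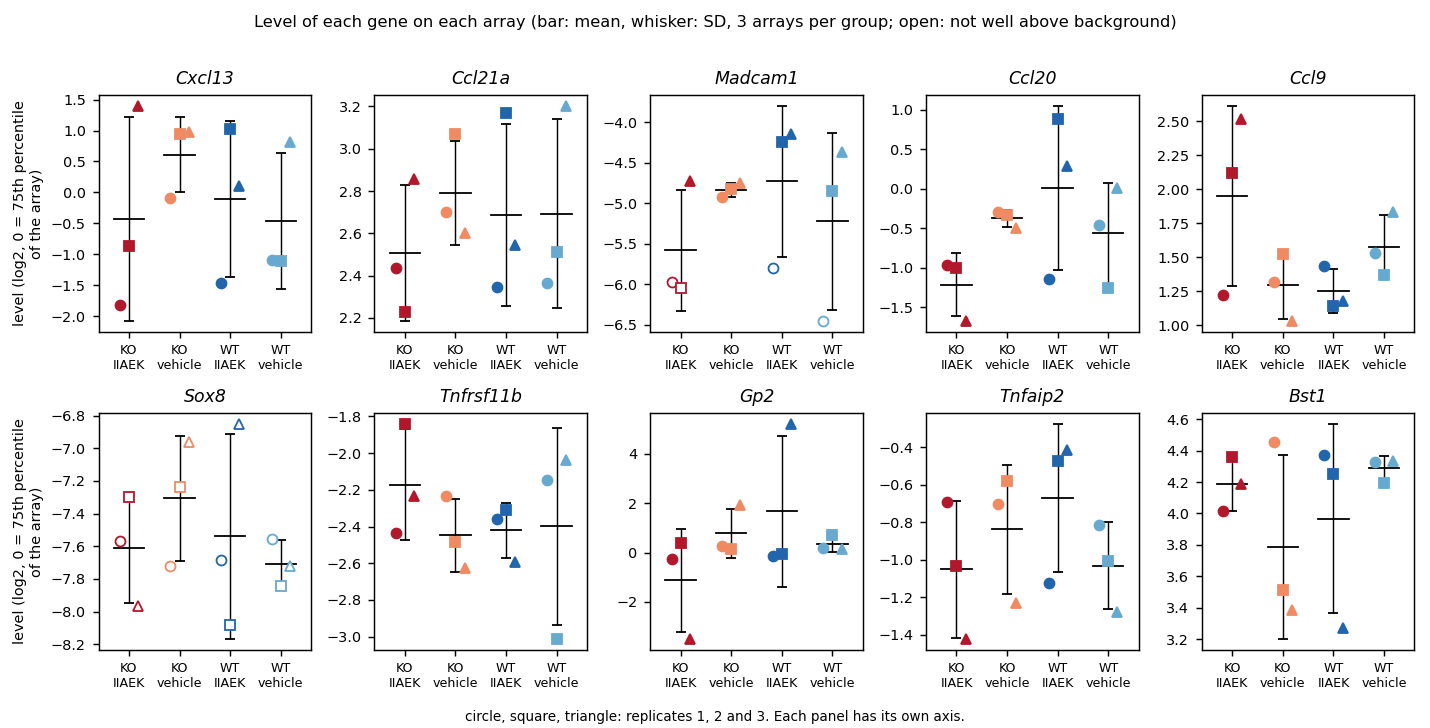
Level of each of the 10 genes on each array (log2, 0 is the 75th percentile of the array), with the mean and SD of 3 arrays per group; open symbols are not well above background. In Ccl20 the 3 knockout mice given IIAEK, at -1.68 to -0.96, lie below the 3 given vehicle, at -0.50 to -0.30; the groups overlap in the other panels for this comparison.

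Over the 12 arrays, the levels of Cxcl13, Ccl21a and Madcam1 were correlated, with the 4 arrays of slide 1 on which Madcam1 was below background included. Pearson's r was 0.80 between Cxcl13 and Ccl21a, 0.76 between Cxcl13 and Madcam1 and 0.74 between Ccl21a and Madcam1, as a description over arrays that share 2 slides. After each group mean was taken off, these values were 0.81, 0.78 and 0.73. On slide 1 taken alone they came to 0.86, 0.81 and 0.87, and on slide 2 to 0.59, 0.21 and 0.43. The values were thus higher on slide 1 than on slide 2. Among the knockout mice given vehicle, replicate 3 had the highest Cxcl13 level and the lowest Ccl21a level.

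Ccl20 encodes the chemokine of the follicle-associated epithelium that draws CCR6-bearing B cells and dendritic cells. Its levels were -0.96, -1.01 and -1.68 in knockout mice given IIAEK, against -0.30, -0.33 and -0.50 in knockout mice given vehicle, and these groups did not overlap. Wild-type mice given IIAEK had -1.15, 0.88 and 0.29, against -0.45, -1.25 and 0.01 in wild-type mice given vehicle, and these did overlap. The means ran, from low to high, from -1.22 ± 0.40 in knockout mice given IIAEK through -0.57 ± 0.64 in wild-type mice given vehicle and -0.38 ± 0.11 in knockout mice given vehicle to 0.01 ± 1.04 in wild-type mice given IIAEK (SD, n = 3). Every neighbouring pair in this order overlapped.

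For IIAEK in knockout mice the difference of Ccl20 was -0.84, a fold of 0.56 (SE 0.45, 95% interval -1.83 to 0.15), and the adjusted p was 0.910 in limma. An exact permutation test of the 3 arrays against 3, two-sided, gave p = 0.1, the smallest it can give. Of all 27560 genes tested, 7.55% were without overlap between these groups, and Ccl20 was the only one of the 10 genes here. In this and every other share, all genes tested are 15809 genes with a symbol and 11751 probes without one, each counted as a gene. Among mice given IIAEK, the difference of Ccl20 between knockout and wild-type mice was -1.22 (SE 0.45, interval -2.22 to -0.23; unadjusted p = 0.0203, adjusted p = 0.647 in limma), with 1 wild-type array inside the range of the knockout arrays. The interaction, the IIAEK effect in knockout minus that in wild-type mice, was -1.41 (SE 0.64; unadjusted p = 0.0492, adjusted p = 0.330 in limma). Within slide 1 the difference for IIAEK in knockout mice was -0.67 and within slide 2 it was -1.18. The difference between knockout and wild-type mice given IIAEK was 0.16 within slide 1 and -2.26 within slide 2, and the interaction was 0.02 and -2.38, so these lay below 0 on slide 2 alone, which holds 1 array of each knockout group.

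Ccl9, known as MIP-1 gamma, encodes a chemokine of the follicle-associated epithelium that attracts myeloid dendritic cells in the mouse. It read 1.22, 2.12 and 2.51 in knockout mice given IIAEK, against 1.32, 1.53 and 1.03 in knockout mice given vehicle. The wild-type levels were 1.43, 1.14 and 1.18 on IIAEK, against 1.53, 1.37 and 1.83 on vehicle. Replicates 2 and 3 of the knockout mice given IIAEK were the highest of the 12 arrays, while replicate 1 lay among the other groups. The mean was 1.95 ± 0.66 in that group and between 1.25 and 1.58 in the other groups (SD, n = 3).

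For IIAEK in knockout mice the difference of Ccl9 was 0.66, a fold of 1.58 (SE 0.28; unadjusted p = 0.0391, adjusted p = 0.910 in limma). Among mice given IIAEK, Ccl9 was 0.70 higher in knockout than in wild-type mice (SE 0.28; unadjusted p = 0.0300, adjusted p = 0.647 in limma), and the interaction was 0.98 (SE 0.40; unadjusted p = 0.0307, adjusted p = 0.315 in limma). None of these passed the threshold of 0.05 after adjustment. The difference for IIAEK in knockout mice was 0.24 within slide 1 and 1.48 within slide 2, where each group had 1 array. Ccl20 and Ccl9 thus had estimates of opposite sign in each of these comparisons when all 12 arrays were used. Their r over the 12 arrays was -0.53, against -0.23 on slide 1 and -0.62 on slide 2. It was -0.21 after group means were taken off and -0.12 without the 2 farthest arrays.

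**Figure D2:**
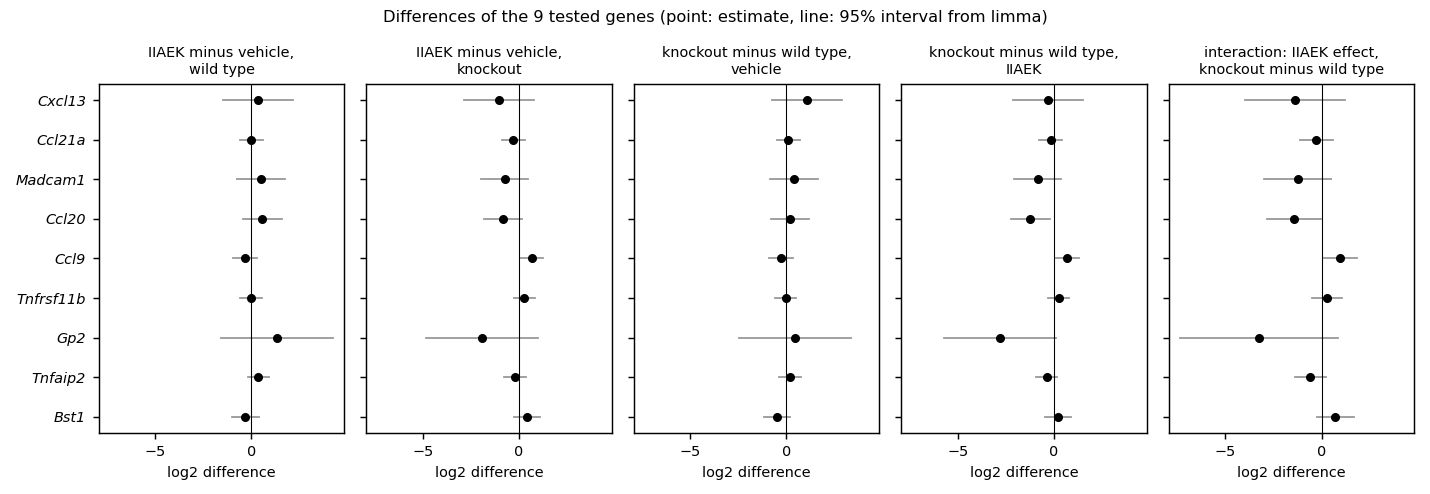
Log2 difference of the 9 tested genes in the 5 comparisons, with the 95% interval from limma; IIAEK minus vehicle in each genotype, knockout minus wild type on each treatment, and the interaction. The intervals of Ccl20 and Ccl9 lie to one side of 0 among mice given IIAEK and in the interaction, and that of Ccl9 also for IIAEK in knockout mice, before adjustment over 27560 genes.

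Sox8 encodes a transcription factor needed for the maturation of M cells in the mouse. Both of its probes were below background on all 12 arrays, at -8.28 to -6.81, so the gene has only an upper bound here and no fold is given.

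Tnfrsf11b encodes osteoprotegerin, the decoy receptor that binds RANK ligand and that M cells make. Its levels were -2.44, -1.84 and -2.24 in knockout mice given IIAEK and -2.23, -2.48 and -2.63 in knockout mice given vehicle, against -2.36, -2.31 and -2.59 in wild-type mice given IIAEK and -2.15, -3.01 and -2.04 in wild-type mice given vehicle. All groups overlapped, and the group means lay between -2.45 and -2.17. The largest of its 5 differences was 0.30, in the interaction (SE 0.35, 95% interval -0.48 to 1.08).

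Gp2 encodes glycoprotein 2, a receptor for bacteria on mature M cells that is also the major membrane protein of zymogen granules in the exocrine pancreas. Its levels were -0.27, 0.39 and -3.51 in knockout mice given IIAEK and 0.28, 0.14 and 1.92 in knockout mice given vehicle. They were -0.13, -0.05 and 5.22 in wild-type mice given IIAEK, against 0.17, 0.71 and 0.12 in wild-type mice given vehicle. Replicate 3 of 3 groups held the values that stood apart, while the other 9 arrays lay between -0.27 and 0.71. The means were -1.13 ± 2.09 in knockout mice given IIAEK and 0.78 ± 0.99 in those given vehicle, against 1.68 ± 3.06 in wild-type mice given IIAEK and 0.34 ± 0.33 in those given vehicle (SD, n = 3). The largest difference between 2 groups was -2.81, between knockout and wild-type mice given IIAEK (SE 1.32, 95% interval -5.71 to 0.09; adjusted p = 0.647 in limma), and it was 0.19 within slide 1. For IIAEK in wild-type mice the difference was 1.34, and it was -0.43 without replicate 3 of the mice given IIAEK.

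Genes of the exocrine pancreas varied over the same arrays. All 11 genes of that list were measured, and their mean deviation from the 12-array mean was 7.95 on replicate 3 of the wild-type mice given IIAEK and 3.49 on replicate 3 of the knockout mice given vehicle. It lay between -2.26 and 0.84 on the other arrays, lowest on replicate 3 of the knockout mice given IIAEK. The summed level of the list was 4.79 to 5.03 in knockout mice given IIAEK, 4.50 to 6.86 in knockout mice given vehicle, 4.82 to 11.02 in wild-type mice given IIAEK and 4.50 to 5.31 in wild-type mice given vehicle. Over the 12 arrays Gp2 went with the list at Pearson's r = 0.85 (permutation p = 0.00073, adjusted 0.00657 over 9 relations) and Spearman's rho = 0.54 (permutation p = 0.0750, adjusted 0.225). Without the 2 arrays farthest from the median of the list, r was 0.35, and it was -0.066 within slide 1 and 0.93 within slide 2, so the relation rests on those arrays. The draws shuffled all 12 arrays without regard to group or slide. The list was chosen with earlier results of these data known, so these p-values are a description and not a fresh test. The part of pancreatic RNA in the Gp2 values was not tested.

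Tnfaip2, also called M-Sec, encodes a cytoplasmic protein of M cells that helps form membrane nanotubes. It read -0.69, -1.03 and -1.42 in knockout mice given IIAEK and -0.70, -0.58 and -1.23 in knockout mice given vehicle, against -1.12, -0.47 and -0.41 in wild-type mice given IIAEK and -0.81, -1.005 and -1.28 in wild-type mice given vehicle. All groups overlapped, and no difference between groups passed the threshold in limma. The second probe of the gene, at -2.47 to -1.41, gave the groups in the same order, with means of -2.02, -1.73, -1.58 and -1.88 in the order above, against -1.05, -0.84, -0.67 and -1.03 for the brighter probe. Both probes had the knockout mice given IIAEK lowest and the wild-type mice given IIAEK highest.

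Bst1 encodes CD157, a surface enzyme of bone marrow stromal cells and Paneth cells that is grouped here with the M cell genes. Its levels were 4.02, 4.36 and 4.19 in knockout mice given IIAEK and 4.46, 3.51 and 3.39 in knockout mice given vehicle, against 4.37, 4.25 and 3.27 in wild-type mice given IIAEK and 4.33, 4.19 and 4.34 in wild-type mice given vehicle. Of the 12 arrays, 9 lay between 4.02 and 4.46, and the other 3 lay between 3.27 and 3.51. The 2 arrays with the highest pancreas list values were the lowest in Bst1, and r with that list was -0.71 over all arrays (permutation p = 0.0125, adjusted 0.0564 over the 9 relations) and 0.086 without those arrays. The limits given for the p-values of Gp2 with that list hold here too. The group means of 3.79 to 4.29 did not differ beyond the SD of up to 0.60.

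In limma no gene passed an adjusted p of 0.05 in any of the 5 comparisons, 0 of 27560 genes or 0% in each, and so none of the 9 tested here. At an unadjusted p under 0.05, IIAEK against vehicle in wild-type mice called 0 of the 9 tested genes, beside 13.0% of all genes tested. IIAEK against vehicle in knockout mice called 1 of them, Ccl9, beside 4.42% of all genes. Knockout against wild-type mice called 0 on vehicle, beside 11.4% of all genes, and 2 on IIAEK, Ccl20 and Ccl9, beside 7.66%. The interaction called the same 2, beside 15.1%. The arrays of the groups did not overlap for 25.3% of all genes with IIAEK in wild-type mice, 23.7% between the genotypes on vehicle and 9.42% between the genotypes on IIAEK, and for none of the 10 genes in these 3 comparisons.

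The median log2 difference over the 9 tested genes, Madcam1 included, was -0.29 for IIAEK in knockout mice and 0.35 for IIAEK in wild-type mice, beside medians of 0.0065 and -0.062 over all genes tested. Between knockout and wild-type mice it was -0.32 on IIAEK and 0.19 on vehicle, beside 0.021 and -0.035. The interaction median was -0.57, beside 0.057. With Sox8, whose values lie below background, the medians over all 10 genes were -0.29, 0.26, -0.25, 0.19 and -0.52 in the same order. Over all 10 genes, the median for IIAEK in wild-type mice lay between 0.030 and 0.41 when 1 array was left out, lowest without replicate 2 and highest without replicate 1 of the mice given IIAEK. Of the 9 tested genes, 3 lay above 0 in knockout mice given IIAEK relative to vehicle, and 5 in wild-type mice, while 51.2% and 43.0% of all genes did. These comparisons share groups with each other and are not independent.

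The receptors and integrins that read the chemokines and MAdCAM-1 were measured beside them, 7 of 8 being tested. For IIAEK in knockout mice, 5 of the 7 had an unadjusted p under 0.05, beside 4.42% of all genes, and their median difference was -1.46. Cxcr5 entered the test through the vehicle group of the knockout alone, the only group with all 3 of its arrays above background. Without it 4 of 6 had such a p and the median was -1.02. Ccr6, the receptor of CCL20, was -2.06 ± 0.38 in knockout mice given IIAEK and -0.07 ± 0.28 in knockout mice given vehicle (SD, n = 3), a difference of -1.99 (SE 0.60; adjusted p = 0.910 in limma). Ccr7, the receptor of CCL21, differed by -2.61 and Cxcr4, the receptor of CXCL12, by -1.46. Cxcr5, the receptor of CXCL13, was not well above background on any array of knockout mice given IIAEK and was at least 11.5-fold lower there than in knockout mice given vehicle, where it averaged -1.998 ± 0.45. In wild-type mice IIAEK gave no unadjusted p under 0.05 among the 7, beside 13.0% of all genes, and their median difference was 0.24. No receptor passed the adjusted threshold in any comparison.

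The list of lymphotoxin, RANK and NF-kB2 signalling had 13 of 14 genes tested. For IIAEK in knockout mice its median difference was -0.16, and 2 of 13 had an unadjusted p under 0.05, beside 4.42% of all genes. They were Lta, at -1.61, and Ltb, at -1.23, the chains of lymphotoxin. Lta was above background on 2 of 3 arrays of knockout mice given IIAEK. In wild-type mice given IIAEK the median was 0.19 and 3 of 13 had such a p, all above 0, namely Map3k14 (NIK, the kinase of the non-canonical pathway) at 0.48, Tnfrsf1b at 0.49 and Nfkb2 at 0.48, beside 13.0% of all genes. In the interaction all 13 lay below 0 and 5 had an unadjusted p under 0.05, while 54.6% of all genes lay above 0 and 15.1% had such a p.

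Other genes of M cells and of the follicle epithelium were mixed. Of the 13 tested, 2 had an unadjusted p under 0.05 for IIAEK in knockout mice, beside 4.42% of all genes: Spib, the ETS factor that M cells and B cells both use, at -1.53 (SE 0.41; unadjusted p = 0.00315, adjusted p = 0.910 in limma), and Ccl6, a chemokine gene of the same mouse family as Ccl9, at 0.76. Spib averaged -1.28 ± 0.38 in knockout mice given IIAEK and 0.25 ± 0.18 in knockout mice given vehicle (SD, n = 3). In the same comparison 11 of the 13 lists had a median below 0. Between knockout and wild-type mice given vehicle, the difference of Spib was 1.24.

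Follicular dendritic cells and lymphoid stroma, which make CXCL13, were read with 11 of 13 genes, Coch being below background on every array. For IIAEK in knockout mice 4 of 11 had an unadjusted p under 0.05, all below 0, beside 4.42% of all genes, and the median was -0.23. They were Cr2, the complement receptor of follicular dendritic cells and B cells, at -3.60, Mfge8, which follicular dendritic cells make, at -1.08, Ccl19, another ligand of CCR7, and Nkx2-3, the homeobox factor that Madcam1 needs in the mouse, at -0.51. Ccl19 entered the test through the vehicle group of the knockout alone, where it averaged -2.67, and was above background on 2 of 3 arrays of knockout mice given IIAEK. Without it 3 of 10 had such a p and the median was -0.19. In wild-type mice given IIAEK the median was 0.42. Of the high endothelial venule list, 6 of 7 genes were tested. Selp, the gene for P-selectin, at -0.52, had the only unadjusted p under 0.05 for IIAEK in knockout mice, beside 4.42% of all genes. It was above background on 1 of 3 arrays of knockout mice given IIAEK and 2 of 3 of those given vehicle. Of the 8 germinal centre genes 4 had such a p, beside the same share of all genes. Of these 4, 1 entered the test through the vehicle group of the knockout alone. The other 3 were S1pr2, Gcsam and Mybl1 at -0.79, -1.11 and -1.07.

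Markers of follicular B cells had the largest share of such p-values among the 13 lists for IIAEK in knockout mice. Of 13 markers 12 were tested, and Blk was below background on every array. For IIAEK in knockout mice 10 of 12 had an unadjusted p under 0.05, all below 0, with a median of -2.88, beside 4.42% of all genes. Of these, 3 (Cxcr5, Fcer2a and Fcmr) entered the test through the vehicle group of the knockout alone, the only group with all 3 arrays above background. Of the other 9 markers, 7 had such a p, and their median was -1.61. For IIAEK in wild-type mice 1 of 12 did, with a median of 0.96, beside 13.0% of all genes. Between knockout and wild-type mice on IIAEK, 8 of 12 had such a p, all below 0, beside 7.66% of all genes. The median was -1.82. These 12 include the 3 markers that entered through the vehicle group of the knockout. On vehicle that group is the higher one, so the filter partly set the result there. No count of such p-values or median of the 12 is given for it, and 2 of the 12 lay below 0. Cd79a, Cd79b and Tnfrsf13c, above background on every array, were 1.11, 1.34 and 1.86 higher in knockout than in wild-type mice on vehicle (adjusted p = 0.423 in limma for each). Together with Cxcr5 they had the smallest p of the list in that comparison. Counts without the 3 markers are not given between the genotypes. The summed level of the list was 1.32 to 1.55 in knockout mice given IIAEK, 3.31 to 3.79 in knockout mice given vehicle, 1.61 to 3.87 in wild-type mice given IIAEK and 1.24 to 3.42 in wild-type mice given vehicle.

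Over the 12 arrays the B cell list split without a middle. The 3 markers that entered the test through the vehicle group of the knockout alone were included. No split without them is given. The mean deviation of the list was 1.12 to 1.74 on 6 arrays. They were all 3 knockout mice given vehicle, wild-type replicates 2 and 3 on IIAEK and wild-type replicate 3 on vehicle. The mean deviation was -1.71 to -1.10 on the other 6, which included all 3 knockout mice given IIAEK. The 5 arrays with the lowest Ccl20 levels, at -1.68 to -0.96, were all among these 6, and so were the 5 arrays with the lowest Cxcl13 levels, at -1.81 to -0.87, and the 4 arrays on which Madcam1 was below background. The other array of the 6 was replicate 1 of the wild-type mice given vehicle for Ccl20, at -0.45, and replicate 3 of the knockout mice given IIAEK for Cxcl13. Madcam1 was above background on that last array and on replicate 2 of the wild-type mice given vehicle, at -4.85. Replicate 3 of the knockout mice given IIAEK had the lowest B cell value of the 12 arrays together with the highest Cxcl13 level, at 1.40, a detected Madcam1 and the lowest Ccl20 level. Not all of the 10 genes followed this split. The lowest Bst1 levels were 3.27 on replicate 3 of the wild-type mice given IIAEK and 3.39 and 3.51 on knockout mice given vehicle. All these arrays had B cell values above 0. Low Tnfaip2 levels lay on both sides. They were -1.42 on replicate 3 of the knockout mice given IIAEK and -1.28 on wild-type replicate 3 on vehicle. The share of all genes that follow the split was not counted. The part of B cell content in the values of the 10 genes was not tested.

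**Figure D3:**
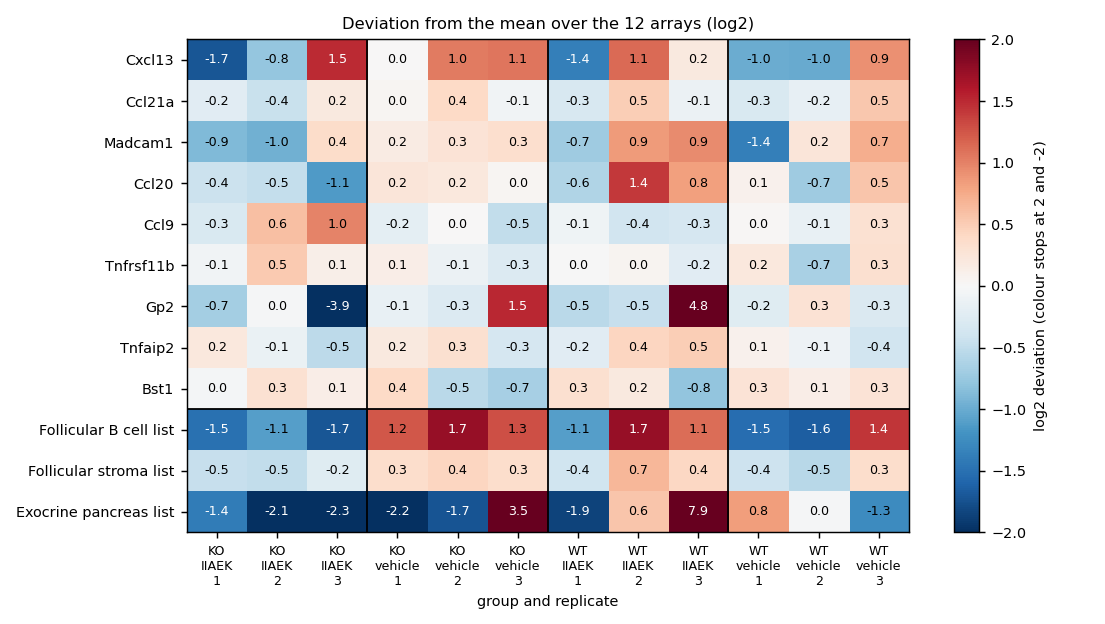
Deviation of each of the 9 tested genes, and of 3 marker lists, from the mean over the 12 arrays (log2), by group and replicate. Cxcl13 and the B cell list share their sign on most arrays and differ on replicate 3 of the knockout mice given IIAEK, at 1.5 and -1.7.

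**Figure D4:**
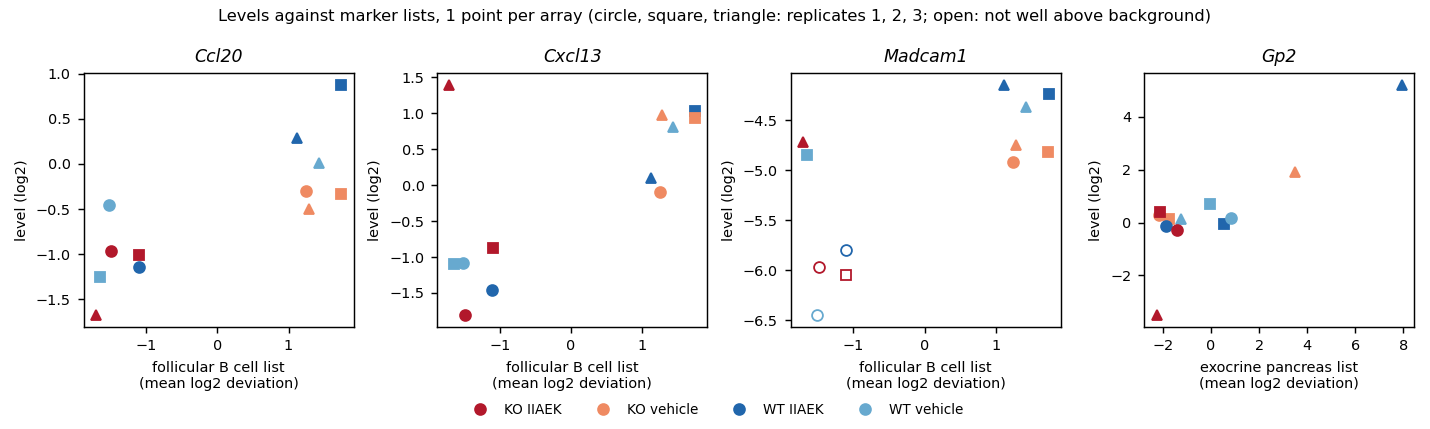
Levels of Ccl20, Cxcl13 and Madcam1 against the follicular B cell list, and of Gp2 against the exocrine pancreas list, 1 point per array (log2). The B cell values lie at -1.71 to -1.10 or at 1.12 to 1.74 with none between, and the Gp2 points above 1 are the 2 arrays with the highest pancreas list values.

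For the other cell types, the share of all genes with an unadjusted p under 0.05 for IIAEK in knockout mice was again 4.42%. T cell markers had 1 of 11 tested genes with such a p, Ccr7, and plasma cell markers 0 of 7. Markers of dendritic cells and macrophages had 1 of 8, Flt3, at -1.01, and epithelial markers 0 of 9. Smooth muscle markers had 0 of 8 in that comparison but 6 of 8 for IIAEK in wild-type mice, all above 0, with a median of 0.89, beside 13.0% of all genes. Between knockout and wild-type mice on vehicle 5 of 8 had such a p, all above 0, with a median of 0.72, beside 11.4% of all genes. That list had a summed level of 5.96 to 6.51 in knockout mice given IIAEK and 5.97 to 6.37 in knockout mice given vehicle. It was 6.10 to 6.86 in wild-type mice given IIAEK and 5.31 to 6.003 in wild-type mice given vehicle, the group with the lowest values. The part of these muscle values in the differences of the 10 genes was not tested, for IIAEK in wild-type mice or between the genotypes on vehicle.

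The genes whose levels were most like each member over the 12 arrays were taken by Pearson's r from 14737 candidates, as a description with no test. Cxcl13 was closest to Zfp37 (0.89), Ebf1 (0.88), a transcription factor of B cells and of stromal cells, and Pcdhb16 (0.87). Ccl21a was closest to Map3k8 (0.87), Tasp1 (0.85) and Marco (0.85), and Madcam1 to Tmem178b (0.95), C1rb (0.91) and Zfp819 (0.89). Ccl20 was closest to Gpr183 (0.91), the oxysterol receptor that guides B cells in follicles, to Ifi208 (0.90) and to Fam131a (0.89). On slide 1 alone these values of Ccl20 were 0.65, 0.84 and 0.37, and on slide 2 they were 0.96, 0.99 and 0.95. Ccl9 was closest to Cct4 (0.94), Atr (0.94) and Far2 (0.94), and Tnfrsf11b to Hnmt (0.94), Fkbp7 (0.92) and Id4 (0.91).

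Gp2 was closest to Cyren (0.91), Prr13 (0.91) and Cela1 (0.89), a pancreatic elastase gene, and without its 2 farthest arrays these values were 0.096, 0.51 and 0.67. Tnfaip2 was closest to Parp10 (0.96), Plekha2 (0.94) and Ppp1r16b (0.93), and Bst1 to the histone genes H2bc1 (0.97) and H2bc14 (0.97) and to Ndfip2 (0.97). None of the 10 genes was among the 3 closest of another.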

How the data were processed

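Per the file headers, each deposited array file comes from Agilent Feature Extraction 10.7.3.1 and holds, per spot, a processed signal as an intensity after background subtraction and detrending by the authors. The authors also deposited a table of log2 values. Set against the arrays, it follows the log2 processed signal scaled to the 75th percentile and centred per probe (r of at least 0.999698 on each array, column medians of -0.0797 to 0.149); this scale and centring were read from the values. Array files were used for the results, and the table as an alternative. Cy3-labelled RNA was measured in 12 samples of 4 groups taken from the sample labels.

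From the files, 0 to 4 spots per array with a non-uniform outlier mark were dropped from 59305, and 15 probes that lacked a spot for this reason were left out. Replicate spots were averaged, and log2 signals were set against the array's 75th percentile. Symbols came from a RefSeq table, which named 32994 probes and left 23611 unnamed. Testing needed a probe well above background on the 3 arrays of some group, and 27560 genes met this, of which 15809 had a symbol. The other 11751 were probes without a symbol, each counted as a gene. Group means were fitted over 12 arrays in limma 3.58.1 (R 4.3.3) with 8 residual and 3.37 prior degrees of freedom, two-sided, with Benjamini-Hochberg adjustment per comparison and a threshold of 0.05. An adjusted p in the text is from this fit. On simulated arrays the fit was checked for known changes. The permutation tests of correlations used 100000 draws over all 12 arrays, without regard to group or slide. Depth on arrays is not counted, and the number of arrays limits the precision.

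The 10 genes, the 13 marker lists and the tests were chosen with earlier results of these data known. The rule for named genes took all 10 members, Akp3, up to 4 genes with the smallest p of each list in the comparison described and the 3 genes most like each member. Some list genes under this rule are counted but not reported here by name. The slides were also the scans. Alternatives were another background correction, another normalization, other filters, the slide or replicate number as a block, each slide alone, and leaving out each array.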

Additional observations from a re-analysis of the deposited data

How the results depend on the processing

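In limma none of the 9 tested genes passed the adjusted threshold under any of 24 alternatives, the lowest adjusted p being 0.0968, and 50 of 1066 differences turned sign. Sox8 was not tested under any of them. Values between the genotypes are knockout minus wild type. Madcam1 has no value with the filter on all 12 arrays, and the interaction has none with the groups compared alone. The replicate numbers did not pair the arrays. After each group mean was taken off, the 18 same-number pairs of arrays of different groups correlated at -0.252 to 0.346. Pairs with other numbers correlated at -0.404 to 0.379, and 5 of 12 arrays correlated best with their own number. With the replicate number as a block the counts of genes past the threshold were 0 in each comparison and the differences were the same, as -0.84 for Ccl20 with IIAEK in knockout mice.

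Each slide alone leaves groups with 1 array, whose spread is assumed to be that of the others. On slide 1, for IIAEK in wild-type mice, 1 gene passed, the median of the 10 genes was -0.17, and Cxcl13, Ccl20, Gp2, Tnfaip2 and Bst1 were at -0.37, -0.69, -0.30, -0.31 and 0.043. Also on slide 1, 7 genes passed for IIAEK in knockout mice and 14 between the genotypes on vehicle. Between the genotypes on IIAEK the median was 0.18, with Cxcl13 at 0.12, Ccl20 at 0.16, Gp2 at 0.19, Tnfaip2 at 0.26 and Bst1 at -0.19, and in the interaction the median was 0.12, with Ccl20 at 0.021, Gp2 at 0.16 and Tnfaip2 at 0.088. On slide 2, 10 genes passed for IIAEK in wild-type mice (Ccl21a 7.45e-05, Tnfrsf11b 0.073) and 18 for IIAEK in knockout mice (median 0.14, Cxcl13 0.43, Ccl21a 0.26, Madcam1 0.032). Also on slide 2, 11 passed between the genotypes on vehicle (median -0.096, Ccl21a -0.25, Madcam1 -0.14, Tnfaip2 -0.089), 40 between them on IIAEK (Cxcl13 0.83, Ccl21a 0.0011) and 4 in the interaction (Ccl21a 0.26). With the slide as a block, 1 gene passed for IIAEK in wild-type mice and 1 between the genotypes on IIAEK, where Cxcl13 was at 0.20. With the groups compared alone, 14 passed for IIAEK in knockout mice, 1 between the genotypes on vehicle and 4 on IIAEK. For IIAEK in wild-type mice, quantile normalization put Ccl21a at 0.022 and Tnfrsf11b at 0.0033, and the deposited table put Ccl21a at 0.0012. The normexp correction gave medians of -0.23 in the interaction and 0.028 for IIAEK in wild-type mice. The cause of these moves was not tested.

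Leaving out 1 array at a time for IIAEK in wild-type mice, genes past the threshold ranged from 0 to 1, Cxcl13 from -0.22 to 1.02, Ccl21a from -0.25 to 0.25, Madcam1 from -0.12 to 1.03, Tnfrsf11b from -0.33 to 0.16, Gp2 from -0.43 to 2.25 and Bst1 from -0.52 to 0.027. Between the genotypes on vehicle the count ranged from 0 to 2, Ccl21a from -0.065 to 0.35, Madcam1 from -0.22 to 0.82, Ccl20 from -0.15 to 0.48, Tnfrsf11b from -0.36 to 0.13 and Gp2 from -0.13 to 0.76. Between them on IIAEK the count ranged from 0 to 2, Cxcl13 from -1.23 to 0.38, Ccl21a from -0.35 to 0.062 and Bst1 from -0.13 to 0.42. The Gp2 interaction of -3.25 ranged from -4.15 to -1.48, the smallest in size without replicate 3 of the wild-type mice given IIAEK.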
